A study of Mus musculus with 42 samples.

Results

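The 9 genes described here place or read methylation on lysine 9 of histone H3 (H3K9), or recruit the enzymes for it, and were followed along mouse reprogramming to induced pluripotent stem cells (iPSC). They are Setdb1, Suv39h1, Suv39h2, Ehmt1, Ehmt2, Atf7ip, Trim28, Zfp57 and Cbx5, picked by name, and they are 9 of the 48321 gene names in each of 2 deposited count tables. The study sequenced poly(A) RNA from 42 libraries in 14 groups of 3. The groups are compared within a table only, because the 2 reporter systems lie in separate tables. A difference in level between the tables thus cannot be told apart from a difference in processing.

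The first table holds the naivex2 (nx2) cells, 3 lines from B6; 129S4-Tg(Tet1-mCherry)B37Koh mice crossed with the strain B6;CBA-Tg(Pou5f1-EGFP)2Mnn/J, each with 1 copy of an mCherry transgene and of a GFP transgene. Its groups are the parental embryonic fibroblasts (MEF, day 0), cells sorted as mCherry+/GFP- at days 10, 12 and 14 (stage III), cells sorted as mCherry+/GFP+ at day 12 (stage IV) and day 14 (stage V), and clonal iPSC lines. The second table holds the totalx2 (tx2) cells, 3 lines from B6- Tet1tm1.1Koh mice crossed with the strain B6;129S4-Pou5f1tm2Jae/J, with the same genotype label and reporters at the Tet1 and Pou5f1 genes themselves. They were sorted as mCherry+/GFP- at days 8, 10 and 12 (stage I) and as mCherry+/GFP+ at day 10 (stage II) and day 12 (stage III). That table also holds clonal iPSC lines from B6- Tet1tm1Koh mice crossed with the same Pou5f1-EGFP strain as nx2, 3 wild-type (wt/wt;GFP/wt) and 3 Tet1 knockout (mut/mut;GFP/wt). All libraries are labelled male, the sorted intermediates come from 3 independent lines per system, and the iPSC were grown on feeder cells that were removed before harvest. The title of the second tx2 day 12 mCherry+/GFP- library lacks the mCherry mark, and it was assigned to that gate by the source name. The wild-type and knockout clones come from a different cross than the tx2 lines. Where wild-type iPSC are compared with tx2 cells, cell state cannot be told apart from cross and reporter.

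H3K9 methylation marks silent chromatin. SETDB1 adds trimethylation within genes and repeats, with ATF7IP as its partner that keeps it in the nucleus, whereas SUV39H1 and its paralogue SUV39H2 do so mainly at pericentromeric repeats. EHMT2 (G9a) and EHMT1 (GLP) work as a pair that adds mono- and dimethylation. TRIM28 (KAP1) is the scaffold that brings SETDB1 to DNA bound by KRAB zinc finger proteins, and ZFP57 is the KRAB zinc finger protein that holds DNA methylation and H3K9 trimethylation at imprinting control regions. CBX5 (HP1 alpha) binds the methylated lysine. In fibroblasts this system is known as a barrier to reprogramming, and in pluripotent cells it silences endogenous retroviruses.

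The libraries held 9693737 to 20783265 counts in the nx2 table and 6540256 to 20225778 in the other, and every member passed the low-count filter in both. The lowest member count in any library was 152, for Suv39h1 in a wild-type iPSC clone. Levels are given as CPM, read counts scaled to a common library total after TMM adjustment. Fibroblast markers fitted the MEF label, with 13 genes summing to 33988 to 34947 CPM, against 2.25 to 4.17 CPM for 10 pluripotency genes, of which Dppa4 was at 0. In the sorted tx2 cells these fibroblast genes summed to 16509 to 25481 CPM at day 8 and to 6172 to 6380 CPM in day 12 GFP+ cells, and in such bulk samples fewer cells of a type and less RNA per cell cannot be told apart. Tet1, the deleted gene, was at 1303, 823 and 874 CPM in the 3 wild-type clones, and the 3 knockout clones held 54.4, 58.6 and 57.3 CPM.

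Of the libraries, 2 stood apart by mitochondrial reads, nx2 day 10 replicate 1 with 8.99% and wild-type iPSC replicate 1 with 12.2%, against 1.75 to 4.02% in the others. In both of them Suv39h2 and Atf7ip were the highest of their 3 replicates, and Suv39h1, Ehmt2 and Trim28 the lowest. The largest gap was in the wild-type iPSC, where Atf7ip was at 396 CPM in replicate 1 and at 204 and 226 CPM in replicates 2 and 3. Ehmt2 was at 121 CPM there against 216 and 201 CPM. Member calls that were gained or lost without these libraries are given with and without them.

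By the gene spans deposited with the counts (mm10), Setdb1 lies on chromosome 3 (95323525 to 95357202, minus strand), Suv39h1 on X (8061171 to 8074760, minus), Suv39h2 on 2 (3455815 to 3475031, minus), Ehmt1 on 2 (24789928 to 24919614, minus) and Ehmt2 on 17 (34898469 to 34914052, plus). Atf7ip lies on 6 (136506167 to 136610862, plus), Trim28 on 7 (12999114 to 13031035, plus), Zfp57 on 17 (37001163 to 37010635, plus) and Cbx5 on 15 (103191544 to 103239816, minus). Counting covered the whole span, introns included. Ehmt1 shares 4.79% of its span with 2 genes on its own strand, Gm38147 and Gm37139, and reads there were not counted. Suv39h1 is overlapped over 98.96% of its span by Gm14820 on the opposite strand, and 43.27% of Suv39h2 lies opposite Dclre1c. Counting was by strand, so such reads were told apart as far as the library kit marks strand.

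The promoters of 4 members are shown because these genes moved most. Zfp57, Trim28 and Suv39h2 rose together on the way from MEF, while Suv39h1 fell. The bases are the RefSeq windows (GRCm38.p6) upstream of a start site, on the gene's strand, cut to bases outside annotated exons, with matches to 3 short motifs in capitals. The windows are chr17:37000913-37001162 (plus) for Zfp57, chr7:13023902-13024151 (plus) for Trim28, chr2:3475032-3475236 (minus) for Suv39h2 and chrX:8074761-8075010 (minus) for Suv39h1.
Zfp57: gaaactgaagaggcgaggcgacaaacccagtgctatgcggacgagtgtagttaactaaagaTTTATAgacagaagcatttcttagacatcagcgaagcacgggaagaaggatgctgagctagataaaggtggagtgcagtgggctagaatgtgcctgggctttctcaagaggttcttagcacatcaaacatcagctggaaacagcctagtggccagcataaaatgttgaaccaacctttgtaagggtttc
Trim28: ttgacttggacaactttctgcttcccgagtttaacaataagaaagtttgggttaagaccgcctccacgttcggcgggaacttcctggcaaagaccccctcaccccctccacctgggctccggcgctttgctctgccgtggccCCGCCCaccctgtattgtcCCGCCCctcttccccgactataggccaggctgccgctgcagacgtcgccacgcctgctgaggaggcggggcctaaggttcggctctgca
Suv39h2: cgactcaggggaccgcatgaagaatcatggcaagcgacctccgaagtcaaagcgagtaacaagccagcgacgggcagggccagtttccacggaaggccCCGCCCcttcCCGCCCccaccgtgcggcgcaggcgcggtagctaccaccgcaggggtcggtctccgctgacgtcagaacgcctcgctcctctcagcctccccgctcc
Suv39h1: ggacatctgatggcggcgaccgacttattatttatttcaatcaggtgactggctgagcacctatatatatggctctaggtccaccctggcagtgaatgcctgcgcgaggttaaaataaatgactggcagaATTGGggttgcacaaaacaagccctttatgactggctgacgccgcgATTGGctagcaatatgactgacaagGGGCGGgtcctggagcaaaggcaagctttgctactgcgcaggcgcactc

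Motifs were searched on both strands over the 250 bases before the start, among them GGGCGG (the GC box), CCAAT and TATAAA. The ETS, NRF1, octamer and YY1 sites were searched as well and had no match in these windows. Matches of different motifs may overlap by a few letters, and none of those printed do. Trim28 held 2 GC boxes, Suv39h1 1 GC box and 2 CCAAT boxes, and Suv39h2 3 GC boxes, 1 of them in the exonic bases not printed. Zfp57 held neither GC nor CCAAT box in this window and had 1 TATAAA match on the minus strand, 189 to 184 bases before the start. Of 32851 RefSeq windows of the same length, 32.7% held a GC box, 33.8% a CCAAT box and 12.4% TATAAA. CpG counts in the window were 27 for Suv39h2, 17 for Trim28, 11 for Suv39h1 and 6 for Zfp57, against a median of 6 over all windows. These matches describe the letters and no binding was measured. Zfp57 has 2 other RefSeq starts inside its span, with 3 and 7 CpG in their windows. The window with 7 CpG held a CCAAT box, 19 to 15 bases before the start. Suv39h1 has a second start inside its span, with 25 CpG and 1 GC box.

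**Figure D1:**
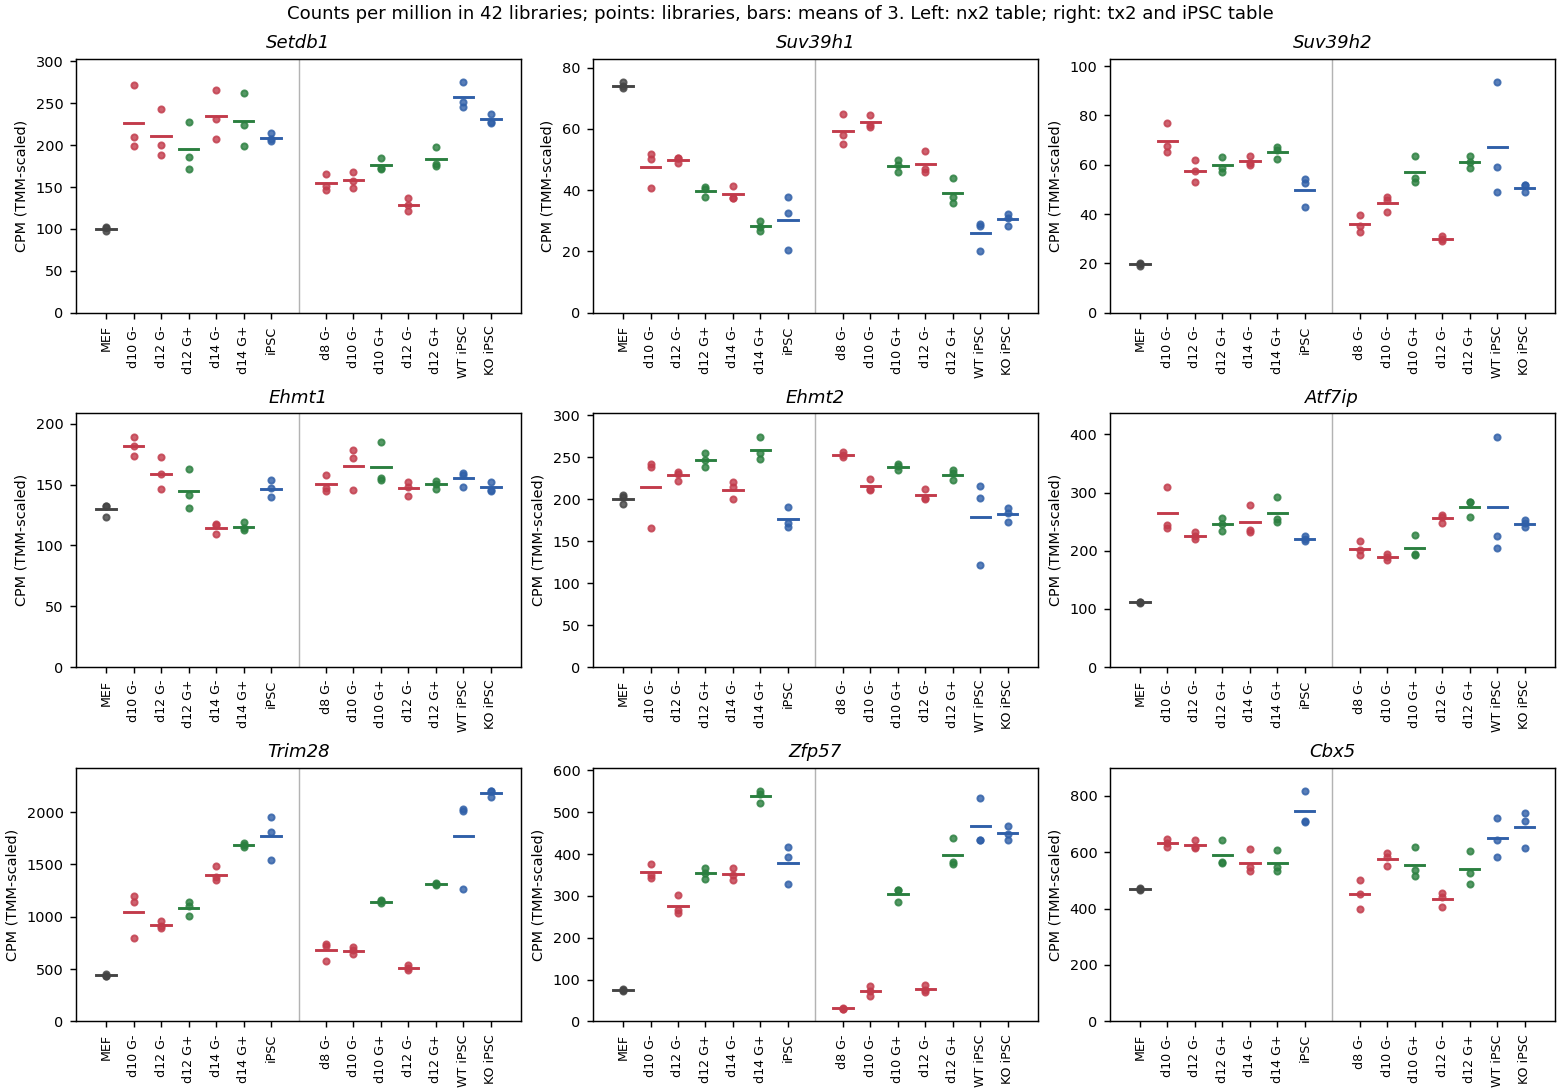
TMM-scaled CPM (vertical axis, linear from 0) of the 9 members in each of the 42 libraries, by group. Points are libraries and bars the mean of 3, in grey for MEF, red for mCherry+/GFP- (G-), green for mCherry+/GFP+ (G+) and blue for iPSC, with the nx2 table left of the line and the tx2 and iPSC table right of it. Zfp57 and Trim28 span the widest range and Suv39h1 is higher in MEF than in any other nx2 group.

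Members differed in how far their levels ranged. Between the group means of a table the highest exceeded the lowest 7.15-fold (nx2) and 14.9-fold (tx2 and iPSC) for Zfp57, and 4.01-fold and 4.25-fold for Trim28. Suv39h2 ranged 3.57-fold and 2.24-fold, Suv39h1 2.63-fold and 2.40-fold, Atf7ip 2.39-fold and 1.45-fold, and Setdb1 2.34-fold and 2.00-fold. Cbx5 ranged 1.58-fold and 1.59-fold, Ehmt2 1.47-fold and 1.41-fold, and Ehmt1 1.59-fold and 1.12-fold, the narrowest. MEF were the lowest nx2 group for 6 of the members, all but Suv39h1, which was highest there, and the pair Ehmt1 and Ehmt2.

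The 15 comparisons gave 135 tests of a member, of which 53 passed an adjusted p of 0.05 (edgeR quasi-likelihood test, Benjamini-Hochberg over all tested genes). The shares of all tested genes that passed differ widely between comparisons and are given beside each count. Leaving the fibroblast state moved most genes and most members. In nx2 day 10 cells against MEF 8 of 9 members were called (7 higher, 1 lower), against 76.4% of all genes (38.8% higher and 37.6% lower). In nx2 iPSC against MEF it was again 7 higher and 1 lower, against 77.3% (37.9% higher and 39.4% lower). Within the nx2 intermediates 2 of 9 members were called between day 10 and day 14 GFP- cells (36.8% of all genes). Between GFP+ and GFP- cells 1 was called at day 12 (16.6%; 9.93% higher and 6.69% lower) and 3 at day 14 (31.3%). Between GFP+ cells of day 14 and day 12 it was 4 (30.5%). Nx2 iPSC against day 14 GFP+ cells had 6, 2 higher and 4 lower (46.8%; 24.3% higher and 22.5% lower). In both comparisons with MEF the members called either way were a share near that of all genes. Nothing particular to the members is read from these counts or from those within the intermediates.

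Among tx2 cells 3 members were called between GFP- cells of day 12 and day 8 (31.6% of all genes), 3 between GFP+ and GFP- cells at day 10 (22.4%; 13% higher and 9.36% lower), 6 at day 12 (61.6%) and 1 between GFP+ cells of day 12 and day 10 (25.1%). Wild-type iPSC against tx2 day 12 GFP+ cells had 5, 3 higher and 2 lower (51.1%; 25% higher and 26% lower). Tet1 knockout against wild-type iPSC had 0 (10.7%; 4.78% higher and 5.87% lower), with 2 members at an unadjusted p under 0.05, Suv39h2 and Trim28, and 0 called by DESeq2. The difference of GFP effects between days was called for 0 members in nx2 (1.54% of all genes, 0.688% higher and 0.855% lower). In nx2 1 member was at an unadjusted p under 0.05, Zfp57, and 0 were called by DESeq2. In tx2 the difference was called for 3 members, all higher (27.3% of all genes, 1603 genes higher and 2540 lower).

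**Figure D2:**
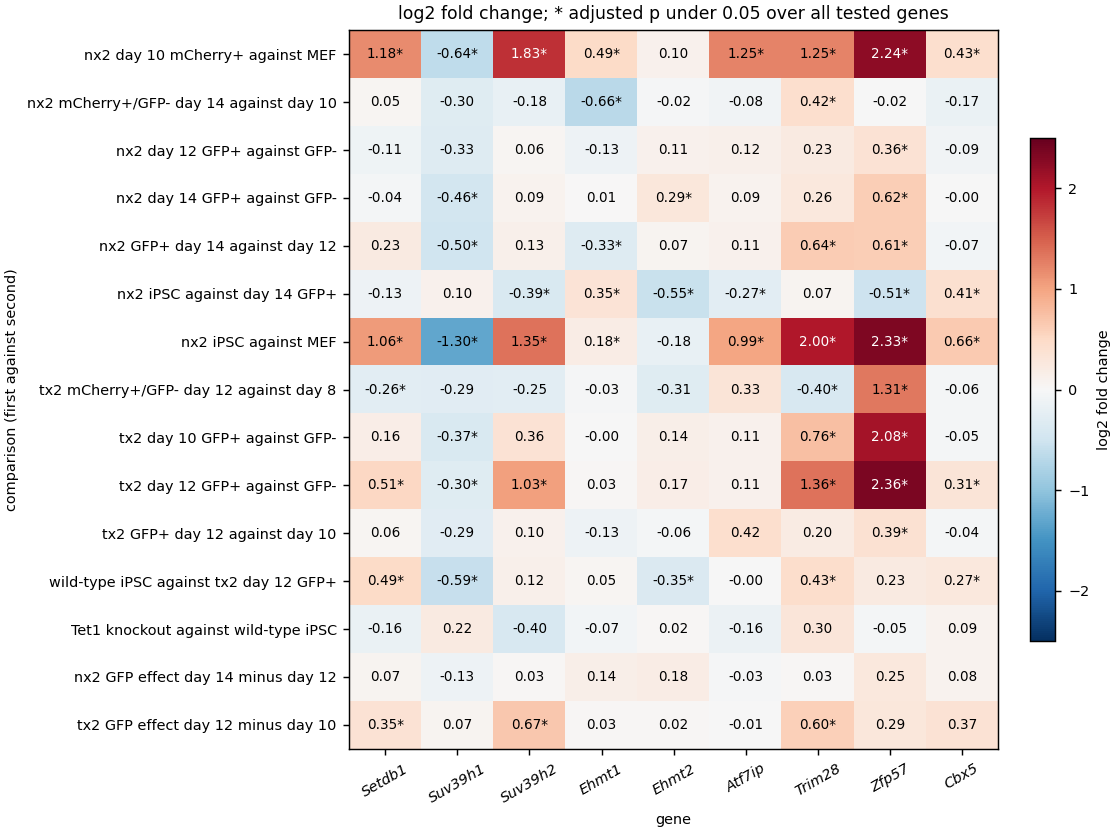
Log2 fold changes (colour and number) of the 9 members (columns) in 15 comparisons (rows, first group against second), with an asterisk where the adjusted p over all tested genes was under 0.05. The upper rows with MEF hold most of the strong colours, and the row of Tet1 knockout against wild-type iPSC has no asterisk.

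Zfp57, whose protein keeps imprinted methylation, moved most. In MEF its level was 75.3, 72.4 and 78.7 CPM, and in nx2 mCherry+/GFP- cells of day 10 it was 342, 377 and 350.2 CPM. The 2 groups lay far apart, and Zfp57 rose by 2.24 ± 0.08 log2 units (standard error, n = 3 and 3, adjusted p = 1.53e-15). At day 12 it was at 266, 301 and 258 CPM in GFP- cells and at 367, 341 and 354 CPM in GFP+ cells, and it rose by 0.36 ± 0.08 between them (adjusted p = 0.00302). At day 14 the GFP- cells held 339, 366 and 351 CPM and the GFP+ cells 551, 545 and 522 CPM, the highest group of the table. The rise there was 0.62 ± 0.08 (adjusted p = 5.94e-06), and the GFP+ cells also rose from day 12 to day 14 by 0.61 ± 0.08 (adjusted p = 9.96e-06). In nx2 iPSC, at 327, 418 and 392 CPM, Zfp57 lay below every day 14 GFP+ library and had fallen by 0.51 ± 0.08 (adjusted p = 2.76e-05). It stayed above MEF by 2.33 ± 0.08.

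Zfp57 set tx2 GFP+ cells apart more than any other member. At day 8 the GFP- cells held 30.7, 30.7 and 32.4 CPM. At day 10 the GFP- cells held 83.6, 72.2 and 60.8 CPM and the GFP+ cells 313, 286 and 314 CPM. At day 12 it was 86.8, 74.9 and 70.3 CPM in GFP- cells and 375, 380.3 and 439 CPM in GFP+ cells. No GFP- library came near a GFP+ library, and Zfp57 was higher in GFP+ cells by 2.08 ± 0.11 at day 10 (adjusted p = 2.08e-10) and by 2.36 ± 0.12 at day 12 (adjusted p = 5.9e-12). Among GFP- cells it rose by 1.31 ± 0.12 from day 8 to day 12 (adjusted p = 3.26e-07). Among GFP+ cells it rose by 0.39 ± 0.11 from day 10 to day 12 (adjusted p = 0.0139), a call lost without day 10 GFP+ replicate 2 (0.34, adjusted p = 0.0849) or day 12 GFP+ replicate 3 (0.31, adjusted p = 0.0894). Wild-type iPSC held 534, 435 and 433 CPM and knockout iPSC 447, 434 and 468 CPM, which overlap each other. The difference of wild-type iPSC from day 12 GFP+ cells was 0.23 ± 0.11 (adjusted p = 0.0861), or 0.32 ± 0.12 without day 12 GFP+ replicate 3 (adjusted p = 0.0435).

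Trim28, the scaffold to which KRAB zinc finger proteins bind, was lowest in MEF in the nx2 table and in tx2 day 12 GFP- cells in the other. In nx2 MEF held 438, 449 and 437 CPM, and day 10 cells held 801, 1140 and 1201 CPM. Trim28 rose by 1.25 ± 0.11 between them (adjusted p = 1.48e-09), and by 1.43 without the day 10 library of high mitochondrial reads, which is the one at 801 CPM. Later GFP- cells were at 896, 913 and 961 CPM on day 12 and at 1347, 1376 and 1482 CPM on day 14. The rise from day 10 to day 14 GFP- cells was 0.42 ± 0.11 (adjusted p = 0.00472), and 0.25 without that library, still called. It was not called when only these 2 groups were fitted (0.41, adjusted p = 0.0862).

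GFP+ nx2 cells held Trim28 at 1099, 1008 and 1143 CPM on day 12 and at 1663, 1683 and 1708 CPM on day 14, a rise of 0.64 ± 0.11 (adjusted p = 0.000169). On both days every GFP+ library lay above every GFP- library, by 0.23 ± 0.11 at day 12 (adjusted p = 0.167) and 0.26 ± 0.11 at day 14 (adjusted p = 0.0702), neither called. Without the day 10 library of high mitochondrial reads both were called, at 0.22 ± 0.07 (adjusted p = 0.0261) and 0.28 ± 0.07 (adjusted p = 0.003). With the line as a replicate block the day 14 difference was called (0.27 ± 0.10, adjusted p = 0.0386). Another scaling (RLE, adjusted p = 0.0346), DESeq2 (adjusted p = 0.0255) and a fit of only these 2 groups (adjusted p = 0.000842) called it too. The day 12 difference was also called with only its 2 groups fitted (adjusted p = 0.0123). Nx2 iPSC held 1546, 1810 and 1955 CPM and overlapped the day 14 GFP+ cells, with a difference of 0.07 ± 0.11 (adjusted p = 0.62).

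In tx2 the GFP gate split Trim28 on both days. GFP- cells held 737, 580 and 722 CPM at day 8, 713, 678 and 642 CPM at day 10 and 509, 541 and 490.3 CPM at day 12. GFP+ cells held 1147, 1158 and 1128 CPM at day 10 and 1316, 1306 and 1323 CPM at day 12. Trim28 was higher in GFP+ cells by 0.76 ± 0.13 at day 10 (adjusted p = 0.000203) and by 1.36 ± 0.13 at day 12 (adjusted p = 4.79e-08). The GFP effect itself grew by 0.60 ± 0.18 (adjusted p = 0.0187). That growth was not called without day 10 GFP- replicate 1 (0.54, adjusted p = 0.0606) or day 12 GFP- replicate 3 (0.56, adjusted p = 0.058), or on library totals alone (0.57, adjusted p = 0.0894). Between GFP+ cells of day 12 and day 10 the difference was 0.20 ± 0.13 (adjusted p = 0.275), called without the wild-type iPSC library of high mitochondrial reads (0.20 ± 0.07, adjusted p = 0.0329). Among GFP- cells Trim28 fell by 0.40 ± 0.13 from day 8 to day 12 (adjusted p = 0.0211), and this call was lost without any of 5 single libraries, day 8 replicates 1 and 3 and day 12 replicates 1, 2 and 3 (adjusted p from 0.0525 to 0.129), on library totals alone (adjusted p = 0.124) and with no low-count filter (adjusted p = 0.0551).

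Trim28 in iPSC depended on 1 clone. Wild-type clones held 1269, 2029 and 2013 CPM, the lowest being the library with 12.2% mitochondrial reads, and knockout clones held 2142, 2198 and 2202 CPM. All knockout libraries lay above all wild-type libraries, by 0.30 ± 0.13 (adjusted p = 0.139), and by 0.11 without the wild-type library of high mitochondrial reads. Without wild-type replicate 2 the difference was called (0.42 ± 0.14, adjusted p = 0.0441). Wild-type iPSC were above tx2 day 12 GFP+ cells by 0.43 ± 0.13 (adjusted p = 0.00873), or 0.63 without that same library. The call was lost on library totals alone (0.32, adjusted p = 0.122) and with only these 2 groups fitted (adjusted p = 0.132).

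SETDB1 and its partner ATF7IP rose together when cells left the fibroblast state. Setdb1 was at 101, 97.4 and 103 CPM in MEF and at 199, 210.03 and 272 CPM in nx2 day 10 cells, a rise of 1.18 ± 0.13 (adjusted p = 7.01e-08). Atf7ip was at 110.3, 111 and 112 CPM in MEF and at 309, 239 and 245 CPM at day 10, a rise of 1.25 ± 0.09 (adjusted p = 5.81e-11). The 2 groups did not overlap for either gene. Setdb1 group means of the 6 nx2 groups after MEF lay between 195 ± 29.5 and 235 ± 29.0 CPM, each overlapping the next. Replicates of one number share a line, and in all 5 sorted nx2 groups replicate 3 was the highest Setdb1 library and replicate 1 the lowest. With the line as a block the GFP+ cells of day 14 were above those of day 12 by 0.23 ± 0.08 (adjusted p = 0.0405), against an adjusted p of 0.197 without the block.

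In tx2 Setdb1 parted the day 12 cells. GFP- cells held 165, 147 and 151 CPM at day 8, 168, 157 and 149 CPM at day 10 and 137, 128 and 121 CPM at day 12. GFP+ cells held 185, 172 and 172 CPM at day 10 and 197, 178 and 175 CPM at day 12. Setdb1 was higher in GFP+ cells by 0.51 ± 0.08 at day 12 (adjusted p = 1.43e-05), while at day 10 the difference was 0.16 ± 0.08 (adjusted p = 0.162). The 2 effects differed by 0.35 ± 0.11 (adjusted p = 0.022). That difference was not called without any 1 of 7 libraries, day 10 GFP- replicates 1 and 2, day 10 GFP+ replicates 2 and 3, day 12 GFP- replicates 2 and 3 and day 12 GFP+ replicate 1 (adjusted p from 0.0504 to 0.0947), or with no low-count filter (adjusted p = 0.102). GFP- cells of day 12 had fallen below those of day 8 by 0.26 ± 0.08 (adjusted p = 0.0149), a call lost without day 8 replicate 1 or 3 or day 12 replicate 2 or 3 (adjusted p from 0.0537 to 0.144), on library totals alone (adjusted p = 0.0587) or with no low-count filter (adjusted p = 0.16). Wild-type iPSC, at 275, 251 and 246 CPM, were the highest group and exceeded tx2 day 12 GFP+ cells by 0.49 ± 0.08 (adjusted p = 3.8e-05).

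Atf7ip had no difference called by the main edgeR run, with all libraries, in the tx2 and iPSC table. Its GFP- cells held 201, 217 and 193 CPM at day 8 and 261, 258 and 248 CPM at day 12, and its GFP+ cells 227, 193 and 195 CPM at day 10 and 284, 283 and 259 CPM at day 12. In both gates every day 12 library lay above every earlier one, by 0.33 ± 0.16 (adjusted p = 0.123) and 0.42 ± 0.16 (adjusted p = 0.0563). The spread estimate of this table takes in the wild-type iPSC, where Atf7ip was at 396, 204 and 226 CPM. Without the library at 396 CPM the same differences were 0.36 ± 0.07 (adjusted p = 0.000261) and 0.42 ± 0.07 (adjusted p = 0.000105), and with the line as a block (adjusted p = 0.0475 and 0.0158) or library totals alone (adjusted p = 0.0174 and 0.0195) they were called as well. DESeq2 (0.44, adjusted p = 0.0445), the lack of a low-count filter (0.44, adjusted p = 0.0402) and leaving out day 10 GFP+ replicate 1 (adjusted p = 0.0412) also called the GFP+ difference. Without the library at 396 CPM, wild-type iPSC lay below tx2 day 12 GFP+ cells by 0.34 (adjusted p = 0.00079), against an adjusted p of 0.991 with all libraries. In nx2 Atf7ip fell by 0.27 ± 0.09 between day 14 GFP+ cells and iPSC (adjusted p = 0.018), a call lost without day 14 GFP+ replicate 3 (0.20 lower, adjusted p = 0.113).

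The SUV39H paralogues went opposite ways. Suv39h2 was at 20.1, 19.9 and 18.7 CPM in MEF and at 76.9, 65.0 and 67.5 CPM in nx2 day 10 cells, a rise of 1.83 ± 0.09 (adjusted p = 1.85e-13). Suv39h1 was at 75.3, 73.9 and 73.3 CPM in MEF and at 40.8, 51.9 and 50.3 CPM at day 10, a fall of 0.64 ± 0.14 (adjusted p = 0.000235). No library of one group overlapped the other for either gene. Between MEF and nx2 iPSC the changes were 1.35 ± 0.09 for Suv39h2 (adjusted p = 2.6e-11) and -1.30 ± 0.14 for Suv39h1 (adjusted p = 2.62e-08).

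Suv39h1 also followed the GFP gate. In nx2 it was at 48.9, 50.4 and 50.5 CPM in GFP- and 37.9, 40.4 and 41.1 CPM in GFP+ cells of day 12, and at 37.4, 41.2 and 37.4 CPM in GFP- and 26.8, 29.9 and 27.9 CPM in GFP+ cells of day 14. Each GFP+ library lay below each GFP- library of its day, by 0.33 ± 0.14 at day 12 (adjusted p = 0.115) and by 0.46 ± 0.14 at day 14, a called fall (adjusted p = 0.0165). GFP+ cells fell further from day 12 to day 14 by 0.50 ± 0.14 (adjusted p = 0.0111). The day 14 gate call was lost without GFP- replicate 2 or GFP+ replicate 1 or 3 (adjusted p from 0.0515 to 0.0782). Nx2 iPSC clones scattered, at 32.5, 20.6 and 37.6 CPM, and differed from day 14 GFP+ cells by 0.10 ± 0.14 (adjusted p = 0.602), which was not called. Without the clone at 20.6 CPM, replicate 2, the difference was 0.31 ± 0.10 (adjusted p = 0.0173). Among GFP- cells the change of Suv39h1 from day 10 to day 14 was -0.30 ± 0.14 (adjusted p = 0.0899), and -0.41 ± 0.14 without the day 10 library of high mitochondrial reads (adjusted p = 0.0337).

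The same gate order held in tx2. Suv39h1 was at 64.4, 60.7 and 61.2 CPM in GFP- and 49.8, 45.9 and 48.2 CPM in GFP+ cells of day 10, lower by 0.37 ± 0.11 (adjusted p = 0.0236). At day 12 it was at 46.8, 52.7 and 45.8 CPM and 43.9, 37.8 and 35.9 CPM, lower by 0.30 ± 0.12 (adjusted p = 0.0281). The 2 gates did not overlap on either day. These calls were marginal. The first was lost without day 10 GFP- replicate 1 or GFP+ replicate 2 or 3 (adjusted p from 0.0526 to 0.0707), and the second without day 12 GFP- replicate 2 or GFP+ replicate 2 or 3 (adjusted p from 0.0785 to 0.0915). Both were lost on library totals alone (adjusted p = 0.0758 and 0.0514). Without the wild-type iPSC library of high mitochondrial reads 2 changes over time were called as well. They were -0.26 ± 0.08 between GFP- cells of day 12 and day 8 (adjusted p = 0.0181, against 0.0569 with it) and -0.29 ± 0.09 between GFP+ cells of day 12 and day 10 (adjusted p = 0.0137, against 0.0746). With all libraries the GFP- change was also called under RLE scaling (adjusted p = 0.0483), the line as a block (adjusted p = 0.0472) and DESeq2 (adjusted p = 0.0275). With only their 2 groups fitted both were called (adjusted p = 0.025 and 0.0373). Wild-type iPSC, which come from a different cross, held 20.3, 29.1 and 28.3 CPM. They lay below tx2 day 12 GFP+ cells by 0.59 ± 0.12 (adjusted p = 0.000415).

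Suv39h2 followed the gate in tx2 at day 12. GFP- cells held 39.6, 32.8 and 35.02 CPM at day 8, 45.9, 46.7 and 40.9 CPM at day 10 and 31.0, 29.9 and 29.2 CPM at day 12. GFP+ cells held 63.5, 53.0 and 54.7 CPM at day 10 and 63.7, 58.8 and 61.2 CPM at day 12. All GFP+ libraries lay above the GFP- libraries of their day. The difference was 1.03 ± 0.16 at day 12 (adjusted p = 1.72e-05) and 0.36 ± 0.16 at day 10 (adjusted p = 0.113), the latter called with the line as a block (0.36 ± 0.12, adjusted p = 0.0393) and without the wild-type iPSC library of high mitochondrial reads (0.35 ± 0.09, adjusted p = 0.00547). The effects differed between days by 0.67 ± 0.22 (adjusted p = 0.0316). This call was lost without any 1 of 8 libraries, day 10 GFP- replicates 1 and 2, day 10 GFP+ replicates 2 and 3, day 12 GFP- replicates 2 and 3 and day 12 GFP+ replicates 1 and 3 (adjusted p from 0.0572 to 0.0845). In nx2 Suv39h2 had no called gate effect, 0.06 ± 0.09 at day 12 and 0.09 ± 0.09 at day 14. It fell by 0.39 ± 0.09 from day 14 GFP+ cells to iPSC (adjusted p = 0.00117).

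The ratio of the 2 paralogues within a library removes scaling. It carries the genes' different lengths, so only its shift between groups of a table is described, with no test. The log2 ratio of Suv39h1 to Suv39h2 counts was 1.91, 1.90 and 1.97 in MEF and -0.91, -0.33 and -0.42 in nx2 day 10 cells. It was lowest in nx2 day 14 GFP+ cells, at -1.33, -1.07 and -1.24. In tx2 it was 0.71, 0.75 and 0.73 at day 8, and at day 12 it was 0.60, 0.82 and 0.65 in GFP- cells and -0.54, -0.64 and -0.77 in GFP+ cells, so it was lower in the GFP+ gate in every line. Wild-type iPSC replicate 1 had the lowest ratio of all libraries, -2.21, while the other 2 clones were at -0.75 and -1.06 and the knockout clones at -0.68, -0.79 and -0.74.

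**Figure D3:**
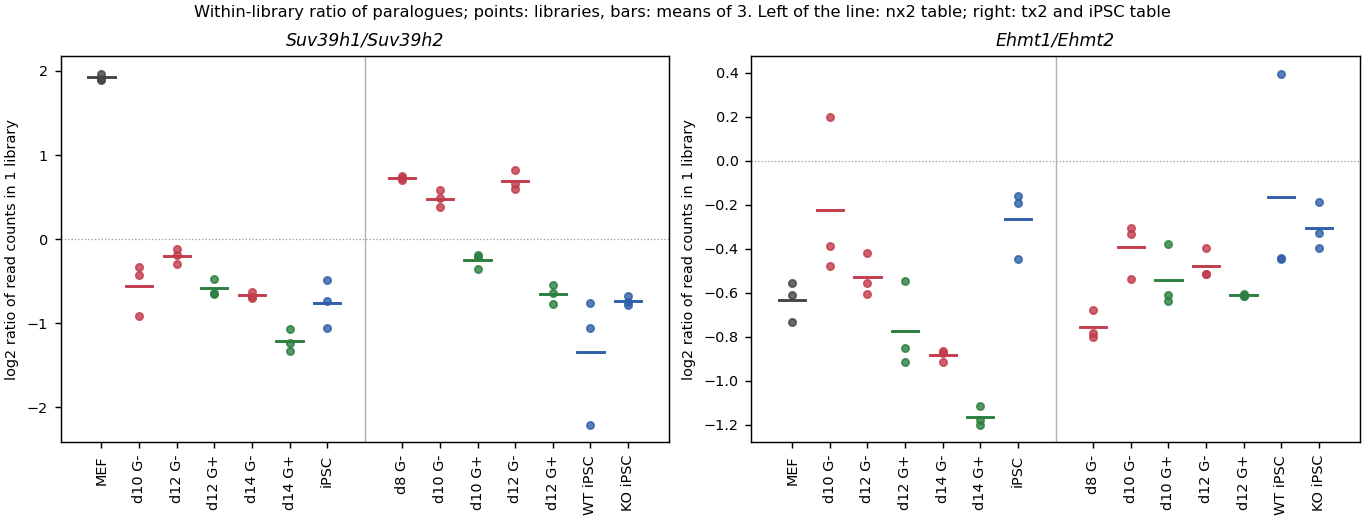
Log2 ratio of read counts within 1 library (vertical axis) for Suv39h1 over Suv39h2 (left panel) and Ehmt1 over Ehmt2 (right panel), by group, with points for libraries, bars for the mean of 3 and colours as in the plot of levels. The Suv39h1 to Suv39h2 ratio falls from 1.92 in MEF to -1.21 in nx2 day 14 GFP+ cells, and in the right panel nx2 day 10 replicate 1 (0.20) and wild-type iPSC replicate 1 (0.40) lie above their own replicates.

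EHMT1 and EHMT2, which act as a pair, moved little and not in step. Ehmt1 was at 132, 124 and 133 CPM in MEF, at 190, 182 and 174 CPM in nx2 day 10 cells, and at 109, 118 and 117 CPM in GFP- cells of day 14. The middle group lay above both others. Ehmt1 rose by 0.49 ± 0.08 from MEF to day 10 (adjusted p = 8.92e-06) and fell by 0.66 ± 0.08 from day 10 to day 14 (adjusted p = 1.88e-06). In GFP+ cells it fell by 0.33 ± 0.08 from day 12 to day 14 (adjusted p = 0.00333), and it rose by 0.35 ± 0.08 from there to iPSC (adjusted p = 0.00116). Nx2 iPSC exceeded MEF by 0.18 ± 0.08 (adjusted p = 0.0424), a call lost without iPSC replicate 1 or MEF replicate 2 or 3 (adjusted p from 0.0582 to 0.105). No tx2 comparison of Ehmt1 was called.

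Ehmt2 was at 194, 205 and 203 CPM in MEF and at 165, 238 and 242 CPM in nx2 day 10 cells. The low day 10 library is the one of high mitochondrial reads. With it the difference was 0.10 ± 0.10 (adjusted p = 0.374), and without it 0.28 ± 0.06, a called rise (adjusted p = 0.000494). From day 10 to day 14 GFP- cells the difference was -0.02 ± 0.10 with that library (adjusted p = 0.878) and -0.19 ± 0.06 without it, a called fall (adjusted p = 0.0209). Between MEF and nx2 iPSC it was -0.18 ± 0.10 with the library (adjusted p = 0.0968) and -0.17 ± 0.06 without it (adjusted p = 0.00944). In day 14 GFP+ cells, at 248, 275 and 255 CPM, Ehmt2 was higher than in GFP- cells, at 200, 215 and 220.2 CPM, by 0.29 ± 0.10 (adjusted p = 0.0292). That call was lost without GFP- replicate 1 or 2 or GFP+ replicate 2 or 3 (adjusted p from 0.0506 to 0.122) and on library totals alone (0.26, adjusted p = 0.0846). Nx2 iPSC, at 172, 190.4 and 168 CPM, lay below every day 14 GFP+ library and had fallen by 0.55 ± 0.10 (adjusted p = 0.000131).

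In the tx2 table Ehmt2 was highest at day 8, at 253, 256 and 250 CPM, against 201, 212 and 201 CPM in GFP- cells of day 12. These groups did not overlap, and the difference of -0.31 ± 0.13 (adjusted p = 0.0785) was called with the line as a block (adjusted p = 0.0236) and without the wild-type iPSC library at 121 CPM (-0.27 ± 0.05, adjusted p = 0.000354). The GFP gate difference at day 12 was 0.17 ± 0.13 (adjusted p = 0.278), and 0.14 ± 0.05 without that library, a call (adjusted p = 0.0246). Wild-type iPSC lay below tx2 day 12 GFP+ cells by 0.35 ± 0.13 (adjusted p = 0.0296), a call lost without that library (0.13 lower, adjusted p = 0.079) or without any 1 day 12 GFP+ library (adjusted p from 0.0617 to 0.0991) or with only these 2 groups fitted (adjusted p = 0.236).

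Cbx5, which encodes the reader HP1 alpha, was at 472, 471 and 467 CPM in MEF and at 633, 620 and 645 CPM in nx2 day 10 cells. It rose by 0.43 ± 0.08 (adjusted p = 2.67e-05). Later nx2 groups drifted down to 562 ± 40.2 CPM in day 14 GFP+ cells, each overlapping the next, and iPSC at 707, 709 and 817 CPM rose above them by 0.41 ± 0.08 (adjusted p = 0.000164). In tx2 the GFP- cells of day 12 held 453, 440 and 407 CPM and the GFP+ cells 527, 605 and 485 CPM, a called difference of 0.31 ± 0.11 (adjusted p = 0.0163). It was lost without GFP+ replicate 2 or GFP- replicate 2 or 3 (adjusted p from 0.0603 to 0.113). The change of the GFP effect from day 10 to day 12, 0.37 ± 0.15 (adjusted p = 0.0797), was called with the line as a block (adjusted p = 0.0477) and without the wild-type iPSC library of high mitochondrial reads (0.35 ± 0.13, adjusted p = 0.0429). Wild-type iPSC exceeded day 12 GFP+ cells by 0.27 ± 0.11 (adjusted p = 0.0443), with overlapping libraries, a call lost without wild-type replicate 1 or 3 or day 12 GFP+ replicate 1 or 3 (adjusted p from 0.0564 to 0.158), on library totals alone (0.12, adjusted p = 0.353), with no low-count filter (adjusted p = 0.085) or with only these 2 groups fitted (adjusted p = 0.157).

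**Figure D4:**
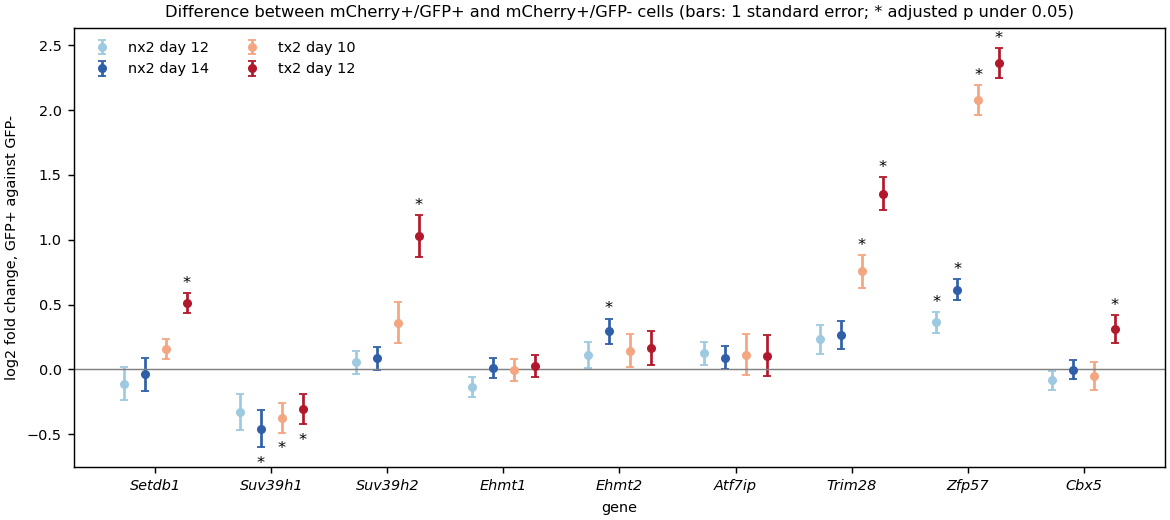
Log2 fold change of mCherry+/GFP+ against mCherry+/GFP- cells (vertical axis) for the 9 members, in nx2 at days 12 and 14 (blue) and tx2 at days 10 and 12 (red). Bars are 1 standard error, and asterisks mark an adjusted p under 0.05. Zfp57 has asterisks in all 4 comparisons, and Suv39h1 lies below 0 in all 4.

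The GFP gate thus had 2 members with the same sign in all 4 gate comparisons and at least 3 calls. Zfp57 was called higher in each, by 0.36, 0.62, 2.08 and 2.36 log2 units. Suv39h1 was lower in each, by 0.33 (not called), 0.46, 0.37 and 0.30, and its calls were each lost without some single libraries. Trim28, Ehmt2, Suv39h2 and Atf7ip also had positive values in all 4 comparisons, with fewer calls, and Atf7ip was not called in any. The nx2 values of Suv39h2 were small, at 0.06 and 0.09, with overlapping libraries, and were not called. For Trim28 the differences were 0.23 and 0.26 (not called) and 0.76 and 1.36 (called). The gates of Trim28 and of Ehmt2 did not overlap in any of the 4, though Ehmt2 was called only in nx2 at day 14. The share of all genes whose gates do not overlap was not counted, so nothing is read from this. Setdb1, Ehmt1 and Cbx5 changed sign between comparisons. Whether the gate effect differs between the nx2 and tx2 systems was not tested, since the systems lie in separate tables. Other markers moved with the gate in both systems, though the fibroblast genes did not go the same way in every comparison. In nx2 at day 14, 8 of 9 tested trophectoderm genes were lower in GFP+ cells, with the list of 10 at 215 to 287 CPM in GFP- and 49.0 to 59.0 CPM in GFP+ cells, 5 of 13 fibroblast genes were lower and 1 higher, and 8 of 10 pluripotency genes were higher. In nx2 at day 12, 5 of 9 trophectoderm genes were lower (51.1 to 75.6 CPM against 30.1 to 32.04 CPM, with Hand1 and Cdx2 at 0 in GFP+ cells) and 4 of 10 pluripotency genes higher. No fibroblast gene was called there. In tx2 all 10 pluripotency genes were called higher in GFP+ cells on both days. At day 10 they summed to 730 to 1000 CPM in GFP- and 2647 to 2824 CPM in GFP+ cells. At day 12 the sums were 748 to 926 CPM and 3992 to 4139 CPM. In tx2 at day 10 the 13 fibroblast genes summed to 4837 to 10843 CPM in GFP- and 7163 to 14849 CPM in GFP+ cells (2 higher and 1 lower). In tx2 at day 12 they summed to 12952 to 16340 CPM in GFP- and 6172 to 6380 CPM in GFP+ cells (12 lower and 1 higher, none at 0). The 16 DNA replication and cell division genes summed to 3365 to 3764 and 5230 to 5423 CPM there (15 higher). In tx2 at day 10, 7 leukocyte genes were called higher in GFP+ cells, at a sum of 8 genes of 56.3 to 175 CPM against 10.9 to 27.5 CPM. Their part in the members' differences was not tested.

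No member was called between Tet1 knockout and wild-type iPSC. The differences ranged from -0.40 ± 0.16 for Suv39h2 (adjusted p = 0.111) to 0.30 ± 0.13 for Trim28, and the standard errors of the 9 members lay between 0.08 and 0.16. Knockout clones were tight, with Suv39h2 at 51.6, 49.0 and 51.7 CPM, while wild-type clones held 93.5, 49.0 and 59.0 CPM. Without the wild-type library at 93.5 CPM the Suv39h2 difference was -0.09, and without wild-type replicate 2 it was called at -0.57 ± 0.14 (adjusted p = 0.0116). Ehmt2 changed sign, from 0.02 ± 0.13 with all clones to -0.19 ± 0.06 without wild-type replicate 1, where it was called (adjusted p = 0.0385). Setdb1 was lower in every knockout library, at 228, 227 and 237 CPM against 275, 251 and 246 CPM, by 0.16 ± 0.08 (adjusted p = 0.199).

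Other genes of the pathway differed in direction between lists and between comparisons. In nx2 day 10 cells against MEF, 6 of 7 other HP1 proteins and heterochromatin readers were higher and 0 lower, beside 38.8% and 37.6% of all genes. Uhrf1, which reads H3K9 methylation at replicating DNA, rose by 1.73 ± 0.08 and Cbx1 (HP1 beta) by 1.16 ± 0.06. Of 12 genes of the HUSH, MORC, ATRX and CAF-1 group, which assemble or silence chromatin, 8 were higher and 2 lower. The list under this name also holds Hdac1, Hdac2 and Smarcad1. Its called genes were led by the CAF-1 subunit Chaf1b at 1.86 ± 0.09 and 2810474O19Rik, a SETDB1 cofactor, at 2.13 ± 0.12. Of 11 H3K9 demethylases, which remove the mark, 8 were higher and 1 lower. Kdm3b rose by 1.61 ± 0.08 and Kdm4c by 1.38 ± 0.08, while Phf2 fell by 1.93 ± 0.09. Other methyltransferases and partners split into 4 higher and 3 lower of 8, with the Atf7ip paralogue Atf7ip2 up by 3.79 ± 0.19 from 1.65 CPM in MEF to 22.8 CPM. All 16 DNA replication and cell division genes were higher, with Mcm7 up by 1.63 ± 0.08. The median log2 fold changes were 0.93 for the readers, 1.14 for the HUSH, MORC, ATRX and CAF-1 group, 0.74 for the demethylases, 0.40 for the methyltransferases and partners, 0.94 for the replication genes and 1.18 for the 9 members, against 0.06 over all tested genes.

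KRAB zinc finger genes, whose proteins bind TRIM28, went both ways. Their copies are close in sequence, so counts of single genes are uncertain. In nx2 day 10 cells 14 of 22 tested were higher and 5 lower than in MEF, with Zfp961 up by 3.09 ± 0.09 from 10.6 to 90.9 CPM. In nx2 iPSC against MEF 11 were higher and 7 lower, beside 37.9% and 39.4% of all genes. In tx2 day 12 cells 7 of 23 were higher and 4 lower in the GFP+ gate, beside 31.2% and 30.4% of all genes, with Zfp459 up by 3.62 ± 0.24 from 2.97 to 38.0 CPM. Their median log2 fold changes were 1.17, 0.60 and 0.22, against 0.06, 0.02 and 0.05 over all tested genes.

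In the tx2 day 12 gate 61.6% of all genes were called, 31.2% higher and 30.4% lower, and the pathway lists are read against that. Of 7 readers 6 were higher, with Cbx1 up by 1.02 ± 0.08 and Cdyl2, a chromodomain protein, up by 3.40 ± 0.14 from 9.23 to 98.1 CPM. Of 12 HUSH, MORC, ATRX and CAF-1 genes 9 were higher and 1 lower, among them Chaf1b (1.30 ± 0.10) and Smarcad1 (1.42 ± 0.12), a remodeller that keeps silent chromatin through replication. Demethylases were split, 5 higher and 2 lower of 10, with Kdm3b up by 0.79 ± 0.09 and Phf2 down, from 75.4 to 29.8 CPM. Medians were 0.97 for the readers, 0.77 for the HUSH, MORC, ATRX and CAF-1 genes and 0.39 for the demethylases, beside 0.05 over all genes. In Tet1 knockout against wild-type iPSC, 0 of 7 methyltransferases and partners, 0 of 10 demethylases and 0 of 7 readers were called. Of the 12 genes on the HUSH, MORC, ATRX and CAF-1 list 3 were higher there, beside 4.78% of all genes. They were Hdac1 (0.47 ± 0.07), Daxx (0.35 ± 0.10) and Pphln1 (0.26 ± 0.08). The median of the 12 was -0.05, against -0.04 over all genes. The 12 summed to 2640 to 4383 CPM in wild-type and 2917 to 3141 CPM in knockout clones. The list tests were not run without wild-type replicate 1, the clone of high mitochondrial reads.

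Some genes ran closely with a member over the 21 libraries of each table. Likeness was the smaller of the 2 tables' Pearson correlations of log2 CPM, taken over 10163 named genes whose mean reached 10 CPM in some group of each table. The points share groups and scaling, so these values are descriptions. Zfp57 was most like Dppa4 (0.98), Zfp459 (0.97) and Trim6 (0.97), and Trim28 most like Igf2bp1 (0.97), Clp1 (0.97) and Rpa2 (0.97). For Suv39h2 they were Odf2 (0.96), Kif15 (0.95) and Zcchc8 (0.94), and for Setdb1 they included Xab2 (0.94) and Mcm7 (0.93). Suv39h1 ran with Fam64a, Faxc and Zfp251 (0.91 to 0.92), Cbx5 with Xpo4, Celf1 and Larp4 (0.90 to 0.93), and Atf7ip with Rsf1, Erich1 and Setd5 (0.82 to 0.87). Ehmt2 ran with Rps19, Pddc1 and Pcnx3 (0.81 to 0.83), and Ehmt1 had the least close partners, Pus7, Pus10 and Ubp1 (0.62 to 0.68). Among members, Suv39h1 ran against Zfp57 in both tables (-0.84 and -0.81) and against Trim28 (-0.88 and -0.77), while Trim28 and Zfp57 ran together (0.92 and 0.86).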

How the data were processed

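Stranded poly(A) RNA libraries (KAPA kit) were sequenced from 42 samples, per the labels' protocols. The authors deposited raw read counts per gene in 2 tables of 21 libraries each, which per the file headers were made with featureCounts 1.5.3 by gene name over whole gene bodies, introns included, on the reverse strand. HISAT2 2.1.0, DESeq2 1.18.1 and the mm10 build are named in the submitters' processing notes. Because introns are counted, levels are not compared between genes.

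From these counts the low-count filter filterByExpr, TMM scaling and edgeR 4.0.16 (R 4.3.3) quasi-likelihood F tests were run on all 21 libraries of a table, as a means model of its 7 groups, testing 16132 and 15197 genes. Calls used a Benjamini-Hochberg adjusted p of 0.05 over all tested genes. Standard errors are the absolute log2 fold change over the square root of F. Log2 CPM used a prior count of 2. The scripts were tested on simulated data. No pair of libraries of a table held identical values, and p-values measure the spread between lines or clones.

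Same-numbered libraries of a reporter system come from the same line per the labels, so numbers pair them. Over tx2 all 30 same-number correlations of deviations from group means were over 0.1 (0.13 to 0.59), and over nx2 32 of 63 (-0.12 to 0.36). The iPSC clones of the second table share only a number. The line as a replicate block was an alternative, beside DESeq2 1.42.0, other scalings and filters, only the contrast's groups, each replicate left out, and the libraries over 8% mitochondrial reads left out.

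The members and pathway lists were chosen with earlier results of these data known. All members are named, and of each other list up to 3 called genes with the smallest p in a comparison. Likeness left out predicted and clone names. One gene among those most like Setdb1 is not reported here.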

Additional observations from a re-analysis of the deposited data

Results flagged for a closer look

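In the tx2 cells the difference between mCherry+/GFP+ and mCherry+/GFP- cells was larger at day 12 than at day 10 for 3 members, by the interaction test over all genes (edgeR quasi-likelihood test, 3 libraries in each of 4 groups). The change in the log2 difference was 0.35 for Setdb1, 0.67 for Suv39h2 and 0.60 for Trim28. The test called 27.3% of all genes either way, and of the 15197 tested genes 1603 were higher and 2540 lower. The 3 called members were all higher. Their share was thus near that of all genes either way, but above it among genes called higher. Most DNA replication and cell division genes were called higher in it too, and none lower. The same held for the readers and for the HUSH, MORC, ATRX and CAF-1 list. The demethylases, the KRAB zinc finger genes and the other methyltransferases and partners had few calls. Nothing particular to the members is read from this count. Without day 10 GFP- replicate 1, or without day 12 GFP- replicate 3, none of the 9 members was called.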

How the results depend on the processing

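Of 53 called member results 36 kept their call under every alternative run, and of 82 uncalled results 57 stayed uncalled. Uncalled values changed sign without a call 99 times among 1998 values compared. Ehmt2 in Tet1 knockout against wild-type iPSC reversed to a called -0.19 without wild-type replicate 1, which is also the library over 8% mitochondrial, and ranged from -0.19 to 0.18 as single replicates were left out. Members called without the libraries over 8% mitochondrial were 4 between nx2 GFP- cells of day 14 and day 10 (2 with all libraries), 2 for the nx2 day 12 gate (1), 6 between tx2 GFP- cells of day 12 and day 8 (3), 4 between tx2 GFP+ cells of day 12 and day 10 (1) and 1 in knockout against wild-type iPSC (0). With only the groups of the contrast they were 1, 3, 6 and 4 for the first 4 of these comparisons, 2 for wild-type iPSC against tx2 day 12 GFP+ cells (5) and 1 for the nx2 GFP effect between days (0). With the replicate block they were 6 and 2 for the tx2 GFP- and GFP+ comparisons over time, where it added Suv39h1, Ehmt2 and Atf7ip, and Atf7ip. The replicate block lost no member call and added 8. Library totals alone gave 3 for wild-type iPSC against tx2 day 12 GFP+ cells and 2 for tx2 GFP+ cells over time. With no low-count filter the tx2 GFP- comparison over time gave 1 and the GFP+ comparison 2, as DESeq2 did for the latter.

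Leaving out single replicates gave ranges of called members of 2 to 4 (nx2 GFP- day 14 against day 10), 1 to 3 (nx2 day 14 gate), 1 to 3 (tx2 GFP- over time), 0 to 2 (tx2 GFP+ over time), 3 to 5 (wild-type iPSC against tx2 day 12 GFP+ cells), 0 to 2 (knockout against wild type) and 0 to 4 (tx2 GFP effect between days). Over all genes the calls ranged from 2107 to 3946 for tx2 GFP+ cells over time (3818 with all libraries, 2107 without day 10 GFP+ replicate 2), from 832 to 2581 for knockout against wild type (1619) and from 117 to 171 for the nx2 GFP effect between days (249). With only the groups of the contrast all-gene calls were 448 for knockout against wild type, 5171 for wild-type iPSC against tx2 day 12 GFP+ cells (7761) and 928 for the nx2 GFP effect, which was 389 with DESeq2 and 396 without the library over 8% mitochondrial. The cause of these changes was not tested.

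Scaling by library totals alone moved the median log2 fold change of all genes from 0.06 to 0.34 in nx2 day 10 cells against MEF, from 0.02 to 0.31 in nx2 iPSC against MEF and from -0.01 to -0.15 in wild-type iPSC against tx2 day 12 GFP+ cells. It moved the share of calls that were higher from 55.3 to 68.8% in nx2 GFP- cells of day 14 against day 10, from 49.0 to 59.1% in nx2 iPSC against MEF, from 49.0 to 37.4% in wild-type iPSC against tx2 day 12 GFP+ cells and from 44.9 to 56.0% in knockout against wild type. With only the groups of the contrast the share for the tx2 GFP effect between days moved from 38.7 to 49.9%.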
